A study of Mus musculus with 6 samples.

Results

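Myc and 34 genes of ribosome biogenesis were followed through 6 total RNA libraries from CD4 T cells of mice. The 35 genes are Myc, 2 RNA polymerase I subunits, 8 snoRNP proteins, 7 factors of the small subunit, 13 of the large subunit, and 4 nucleolar chaperones and related genes. They were taken by name, not by a cut on their values, but earlier results of these data were known when they were chosen. All 35 were found among the 24011 genes of the deposited table and all passed the filter on low values, with 11224 genes tested. The libraries came from C57BL/6 mice, either wild type (WT) or YAP cKO, in which a floxed Yap1 allele is deleted by Cre driven by the CD4 promoter. That promoter acts in T cells from the double-positive thymocyte stage, so CD4 and CD8 T cells both derive from recombined cells. Each genotype gave naive CD4 T cells (CD62L+ CD25-), natural regulatory T cells (nTregs, CD25 high) frozen fresh, and nTregs stimulated with IL-2 (100 U/ml) and antibodies to CD3 (2 µg/ml, coated on the plate) and to CD28 (2 µg/ml, in solution). The labels give both 24 h and 48 h for the stimulation and do not say how many mice stand behind a library. Every group is 1 library.

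Myc is a transcription factor that, as a dimer with Max, binds the E-box CACGTG and raises the output of genes for growth, among them those that build ribosomes. Ribosome assembly starts in the nucleolus, where RNA polymerase I makes the rRNA precursor. Small nucleolar ribonucleoproteins (snoRNPs) modify that RNA, the small subunit processome and the large subunit factors cut and fold it, and resting T cells raise this whole pathway when their receptor is engaged.

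Levels are given as FPKM, which counts fragments relative to transcript length and is scaled across the libraries, so genes can be compared with each other. The sorts carried their markers: Foxp3, the factor that defines Tregs, was 2.98 and 3.30 FPKM in naive cells (WT first), and stood at 46.6 and 45.9 FPKM in nTregs frozen fresh and at 56.9 and 57.8 FPKM after stimulation. Genotype rests on column names alone, since Yap1 was listed at 0 in 4 libraries and was 0.169 FPKM in WT and 0.235 in cKO stimulated nTregs, so the library labelled cKO did not have less of it. The genotypes also differed in Xist, the X-inactivation RNA of female cells, at 30.0 FPKM (WT) against 3.21 FPKM (cKO) before stimulation of nTregs and 21.1 against 3.43 FPKM after it. The naive libraries were closer, at 12.5 against 8.76 FPKM, and Ddx3y, a Y-linked gene, was 33.2 to 79.0 FPKM over the 6 libraries. The part of Xist in any genotype difference was not tested. B cell markers moved with the populations too. Cd74, the invariant chain of class II presentation, was 4.14 and 4.255 FPKM in the naive libraries, 30.6 and 25.97 FPKM in the fresh ones and 4.13 and 6.13 FPKM in the stimulated ones. Cd79b, of the B cell receptor, was 0.883 and 0.428 FPKM, then 12.0 and 11.2 FPKM, then 4.58 and 2.63 FPKM in the same order. The 8 myeloid markers summed to 1.80 to 5.01 FPKM and none of the 8 erythroid and platelet markers reached 1 FPKM. The 7 CD8 T and NK cell markers summed to 16.9 and 12.4 FPKM in naive libraries and 24.0 and 36.2 FPKM in fresh ones. In stimulated libraries they summed to 26.1 and 69.9 FPKM. Nkg7 carried that rise, at 2.83 and 1.885 FPKM, then 15.0 and 27.8 FPKM, then 19.9 and 63.7 FPKM. Cd8b1 went the other way, at 8.01 and 8.90 FPKM, then 5.36 and 5.58 FPKM, then 3.23 and 3.75 FPKM. Gzma was highest in WT naive cells (4.955 FPKM) and Klrb1c in WT fresh nTregs (1.48 FPKM). Cd8a, Ncr1 and Klrk1 stayed under 1 FPKM. The part of these markers in the results was not tested, and in bulk samples fewer cells that express a gene and less RNA per cell cannot be told apart.

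The 35 genes were well expressed throughout. Their lowest value was 6.12 FPKM, for Gar1 in cKO fresh nTregs, and their highest was 1396 FPKM, for Npm1 in WT stimulated nTregs. Depth, estimated from the spacing of very low values, gave each of them at least 66 fragments in every library. Their summed FPKM was 2256 (WT) and 2239 (cKO) for the naive state, 1857 and 1868 for fresh nTregs, and 2927 and 2883 once stimulated. The sum was thus lowest in fresh nTregs and highest after stimulation in both genotypes, and Npm1 alone made up a large part of it. Without Npm1 the sums were 1241 and 1274, then 1016 and 1041, then 1532 and 1615 FPKM.

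**Figure D1:**
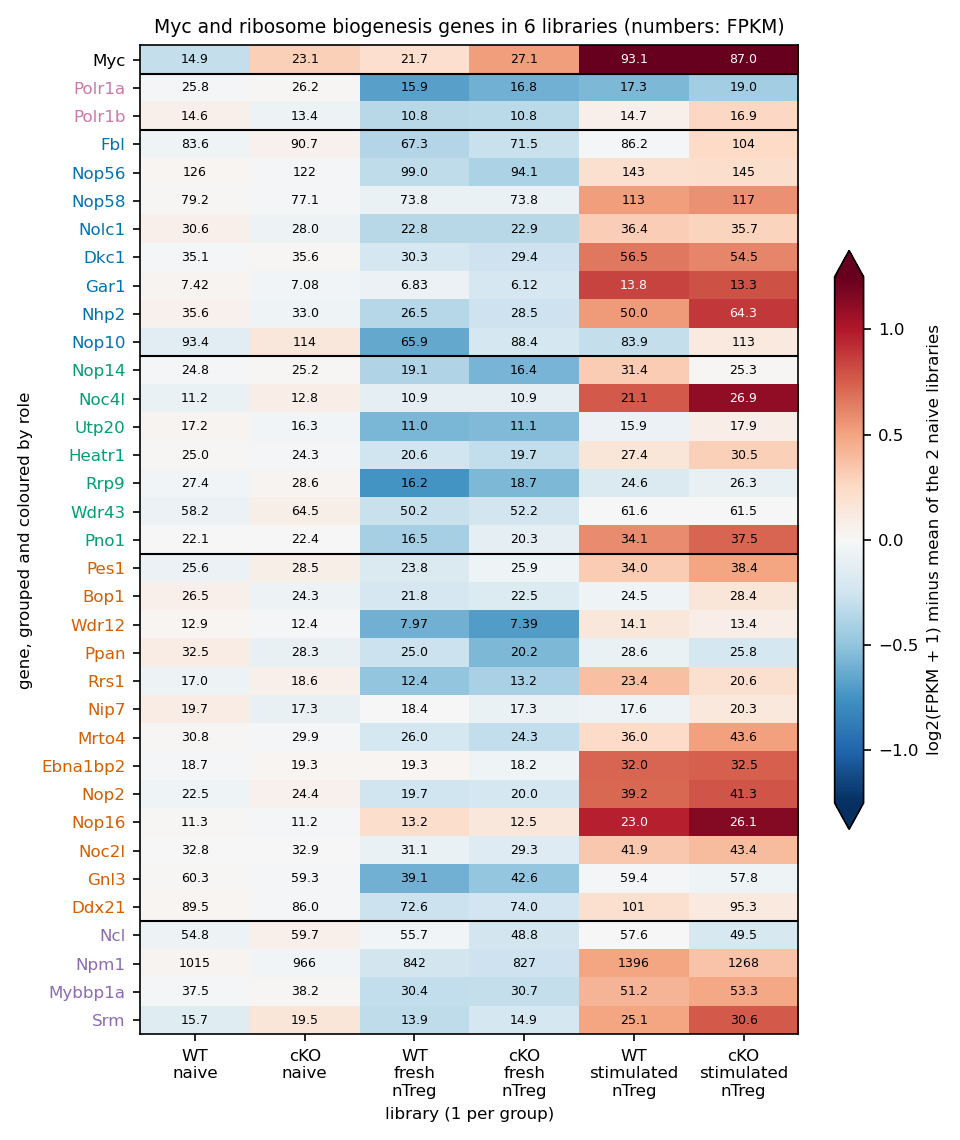
Each cell prints the FPKM of 1 gene (rows, grouped and coloured by role) in 1 library (columns), coloured by its log2(FPKM + 1) minus the mean of the 2 naive libraries, with Myc beyond the colour scale in the stimulated libraries. Most rows are paler or blue in fresh nTregs and red in stimulated nTregs, while Polr1a stays blue in both nTreg states.

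The E-box letters were looked for in the RefSeq promoter windows (250 bases before to 50 after each start, GRCm38.p6), because the members include many textbook Myc targets. Of the 35 members 29 had a window and Myc, Fbl, Bop1, Rrs1, Npm1 and Srm had none in the table. CACGTG, which reads the same on both strands, was in the windows of 6 of 29 members (20.7%), of 15 of 90 other ribosome biogenesis factors (16.7%), of 12.2% of the tested genes with a window and of 8.09% of all genes in the table. The matches are shown with their flanks, 5′ to 3′ on the strand of the gene, ordered from the largest to the smallest stimulation response, with the E-box in capitals. Only that of Nop2 lies before the start, and the other 5 lie within the first 50 bases after it.
Nop2: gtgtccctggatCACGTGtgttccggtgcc
Pno1: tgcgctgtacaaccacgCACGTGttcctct
Mybbp1a: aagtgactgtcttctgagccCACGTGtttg
Utp20: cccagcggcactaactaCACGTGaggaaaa
Pes1: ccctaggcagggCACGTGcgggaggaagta
Wdr43: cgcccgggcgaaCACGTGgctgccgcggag
On the plus strand lie the stretches of Nop2 (chr6:125131811-125131840), Mybbp1a (chr11:72441347-72441376), Pes1 (chr11:3963965-3963994) and Wdr43 (chr17:71616220-71616249). On the minus strand lie those of Pno1 (chr11:17211540-17211569) and Utp20 (chr10:88826765-88826794). The 6 members with the letters had a median stimulation response of 0.66 in log2 and the 23 without had 0.57. The letters describe these windows only.

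After stimulation, Myc and nearly all the ribosome biogenesis genes were higher than in fresh nTregs. Of 35 members 31 rose and 0 fell in limma's moderated test on log2(FPKM + 1) (Benjamini-Hochberg adjusted p under 0.05), against a background of 22.5% of all tested genes higher and 27.3% lower. The median member differed by 0.63 in log2 (1.55-fold), against -0.05 for all tested genes. With every library brought to the same FPKM sum, 86.8% of all calls were upward in place of 45.2%, the median of all genes moved up by 0.52 and that of the members was 1.20. All 35 members were called higher there, and 34 with short RNAs left out of the sum (72.7% of all calls upward). Set against the median of all genes, the members stood at 0.68 as deposited and 0.73 after that rescaling. Calls of Fbl, Utp20, Heatr1, Mrto4 and Noc2l were lost without the cKO fresh nTreg library and those of Rrp9, Gnl3 and Ddx21 without the WT fresh nTreg library, and that of Ppan was lost under 10 alternatives. The test pools the genotypes, so its error is the spread between libraries, not between mice.

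Myc (mm10 chromosome 15, 61985341 to 61990361) had the largest response. Fresh nTregs had 21.7 FPKM in WT and 27.1 FPKM in cKO, against 93.1 and 87.0 FPKM once stimulated. Both stimulated libraries lay far above the other 4, with no overlap. The rise was 1.85 in log2 (SE 0.16, adjusted p = 0.000503 by limma), 3.61-fold in FPKM + 1.

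Of the 2 RNA polymerase I subunits 1 rose. Polr1b, the second-largest subunit, was 10.8 and 10.8 FPKM in fresh nTregs and 14.7 and 16.9 FPKM in stimulated nTregs, a rise of 0.50 (SE 0.11, adjusted p = 0.0118 by limma). That call was lost without the WT fresh nTreg library (adjusted p = 0.0783) or the cKO fresh nTreg library (adjusted p = 0.0878). Polr1a, the largest subunit and the one that holds the catalytic centre, was 15.9 and 16.8 FPKM in fresh and 17.3 and 19.0 in stimulated nTregs. The stimulated values lie just above the fresh ones, and the difference of 0.14 (SE 0.09, adjusted p = 0.207 by limma) was not called. Polr1a was called at both equal FPKM sums, with and without short RNAs.

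All 8 snoRNP genes rose. Nhp2, a core protein of the H/ACA snoRNPs that direct pseudouridylation, was 26.5 and 28.5 FPKM in fresh and 50.02 and 64.3 FPKM in stimulated nTregs (1.02, SE 0.12, adjusted p = 0.00133 by limma). Its partner Gar1 went from 6.83 and 6.12 FPKM to 13.8 and 13.3 FPKM, and Dkc1, the pseudouridine synthase, from 30.3 and 29.4 FPKM to 56.5 and 54.5 FPKM. Stimulated and fresh values of these 3 H/ACA genes lie far apart. Nop10, the remaining H/ACA core gene, had the smallest rise of the group, from 65.9 and 88.4 FPKM to 83.9 and 112.7 FPKM (0.35, SE 0.08, adjusted p = 0.0122 by limma), and its WT stimulated value lies below its cKO fresh value. Without the WT fresh nTreg library that call was lost, as it was without the cKO fresh nTreg library and without the genotype term of the fit. In the box C/D snoRNPs, which direct ribose methylation, the methyltransferase Fbl rose by 0.44, Nop56 by 0.57 and Nop58 by 0.63 in log2. Nolc1, a chaperone of snoRNPs, rose by 0.64.

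All 7 small subunit genes rose. Noc4l, a partner of Nop14 in the processome, was 10.9 and 10.9 FPKM in fresh and 21.1 and 26.9 FPKM in stimulated nTregs (1.06, SE 0.11, adjusted p = 0.000892 by limma). Pno1, a late 40S assembly factor, went from 16.5 and 20.3 FPKM to 34.1 and 37.5 FPKM. Both genes had stimulated values clear of all 4 other libraries. Wdr43, a processome protein, had the smallest rise, from 50.2 and 52.2 FPKM to 61.6 and 61.5 FPKM (0.26, SE 0.08, adjusted p = 0.0328 by limma). Its call was lost without the WT naive, cKO naive, WT fresh, cKO fresh or WT stimulated library. That call was also lost in the fit without the intensity trend. Nop14, Utp20, Heatr1 and the U3 snoRNP protein Rrp9 rose by 0.50 to 0.65.

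Of 13 large subunit genes 11 rose. Nop2, an rRNA methyltransferase, was 19.7 and 20.0 FPKM in fresh and 39.2 and 41.3 FPKM in stimulated nTregs (0.98, SE 0.08, adjusted p = 0.00041 by limma). Nop16 rose from 13.2 and 12.5 FPKM to 23.0 and 26.1 FPKM. The PeBoW complex, which Pes1, Bop1 and Wdr12 form for processing of the large subunit rRNAs, had 2 called genes. Wdr12 rose by 0.76 and Pes1 by 0.52, while Bop1 stood at 0.24 (adjusted p = 0.0995 by limma) and was not called. Bop1 was called at both equal FPKM sums, under median ratio scaling, without the WT stimulated library and at a threshold of 0.1. Nip7, a late 60S factor, was the flattest of the group, at 18.4 and 17.3 FPKM in fresh and 17.6 and 20.3 FPKM in stimulated nTregs (0.07, SE 0.12, adjusted p = 0.621 by limma). Its fresh and stimulated values overlap. Nip7 was called at both equal FPKM sums.

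Among the 4 remaining genes 3 rose. Srm, the spermidine synthase gene and a known Myc target outside ribosome assembly, went from 13.9 and 14.9 FPKM to 25.1 and 30.6 FPKM (0.90, SE 0.10, adjusted p = 0.000901 by limma). Npm1, nucleophosmin, rose from 841.6 and 827 FPKM to 1396 and 1268 FPKM, and Mybbp1a, a nucleolar Myb-binding protein, from 30.4 and 30.7 FPKM to 51.2 and 53.3 FPKM. The Npm1 call was lost without the WT fresh (adjusted p = 0.0712 by limma) or the cKO fresh nTreg library (adjusted p = 0.0503 by limma). Ncl, which encodes the abundant nucleolar protein nucleolin, was 55.7 and 48.8 FPKM in fresh and 57.6 and 49.5 FPKM in stimulated nTregs. Those values overlap, and the difference was 0.03 (SE 0.10, adjusted p = 0.799 by limma). Ncl was called at an equal FPKM sum, but not with short RNAs left out of that sum.

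**Figure D2:**
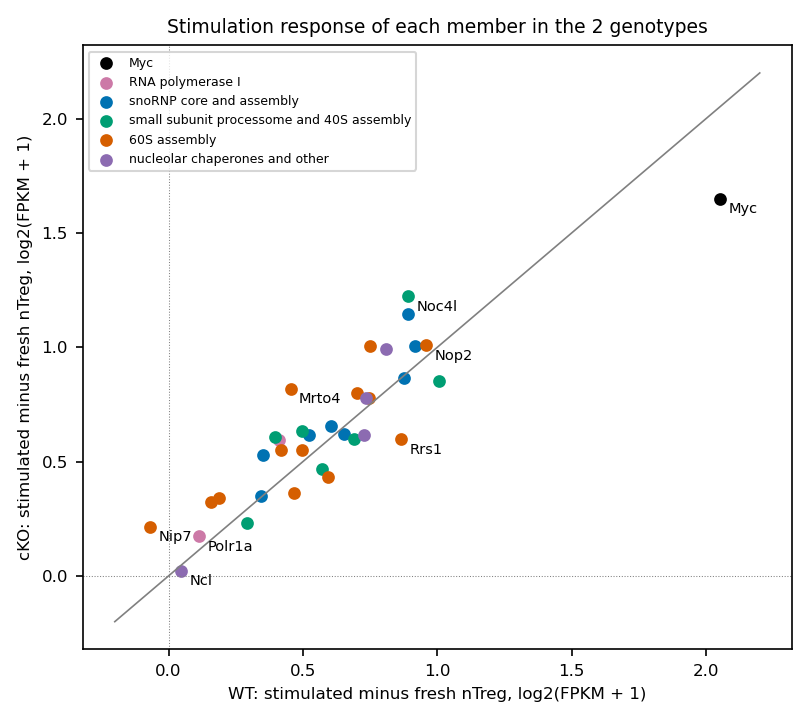
Stimulated minus fresh nTreg difference in log2(FPKM + 1) for each of the 35 members (points, coloured by role) in WT (horizontal) and cKO (vertical), with the line of equal response. Myc stands apart at 2.05 in WT and 1.65 in cKO, and Ncl, Nip7 and Polr1a lie nearest 0.

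Beside naive cells the picture differed by gene. Both stimulated libraries lay above both naive libraries for 24 of 35 members (background 38.6% of tested genes). Myc was 6.26 times its naive FPKM in WT and 3.77 times in cKO, and Nop16 was 2.03 and 2.34 times. For Polr1a and Rrp9 both stimulated libraries lay below both naive ones (background 42.0%), Polr1a at 0.671 and 0.725 of its naive FPKM in WT and cKO. These comparisons with naive cells are given for the deposited scaling only. An equal FPKM sum moves the naive libraries by -0.29 (WT) and -0.28 (cKO) in log2. It moves the stimulated ones by 0.57 and 0.41, so the place of Polr1a and Rrp9 below naive cells depends on the scaling.

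Part of the members had less RNA in fresh nTregs than in naive cells. Of 35 members 14 fell and 0 rose in the same limma fit, against a background of 14.7% of tested genes lower and 16.5% higher. The 14 were Polr1a, Fbl, Nop56, Nolc1, Nop10, Nop14, Utp20, Rrp9, Wdr12, Ppan, Rrs1, Gnl3, Ddx21 and Mybbp1a. The median member differed by -0.27 in log2, against -0.02 for all genes, and the estimate was below 0 for 33 of 35. Over all tested genes the estimate was below 0 for 5867 of 11224. The size of the call depended on the scaling and on single libraries. At an equal FPKM sum 80.6% of all calls were upward in place of 52.8%, 5 members fell and 1, Nop16, rose. Relative to the median of all genes the members stood at -0.25 as deposited and at -0.23 under that rescaling. The count of members that fell was 5 without WT naive, 6 without cKO naive, 3 without WT fresh, 3 without cKO fresh, 22 without WT stimulated and 22 without cKO stimulated.

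Polr1a (chromosome 6, 71909053 to 71979435) was 25.8 and 26.3 FPKM in WT and cKO naive cells and 15.9 and 16.8 FPKM in fresh nTregs (-0.64, SE 0.09, adjusted p = 0.00347 by limma). Rrp9 (chromosome 9, 106477309 to 106485415) was 27.4 and 28.6 FPKM in naive cells and 16.2 and 18.7 FPKM in fresh nTregs (-0.65, SE 0.08, adjusted p = 0.00316 by limma). Neither gene's groups overlap, and these were the only 2 of the 14 whose call held under every alternative tried. Wdr12 fell from 12.9 and 12.4 FPKM to 7.97 and 7.39 FPKM (-0.65, SE 0.10, adjusted p = 0.00464 by limma), a call lost without the cKO fresh library (adjusted p = 0.0577). Gnl3, the nucleolar GTPase nucleostemin, fell from 60.3 and 59.3 FPKM to 39.1 and 42.6 FPKM (-0.54), a call lost without the WT fresh library (adjusted p = 0.0754). Among the snoRNP genes 4 of 8 fell, Nop10 most (-0.43, SE 0.08, adjusted p = 0.00929 by limma) and Nop58 least, at -0.08 (SE 0.07, adjusted p = 0.426 by limma). The Nop10 call was lost without the WT naive, WT fresh or cKO fresh library. It was also lost at both equal FPKM sums and without the genotype term of the fit. Mybbp1a stood at -0.30 (SE 0.07, adjusted p = 0.0277 by limma), a call lost without any 1 of the 4 naive and fresh libraries. That call was also lost at both equal FPKM sums and in the fit without the intensity trend.

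Myc did not go down with them. It was 14.9 and 23.1 FPKM in WT and cKO naive cells and 21.7 and 27.1 FPKM in fresh nTregs, so the WT fresh value lies below the cKO naive value. The difference of 0.37 (SE 0.16, adjusted p = 0.135 by limma) was not called, although it was without the WT stimulated library (adjusted p = 0.0274) or the cKO stimulated library (adjusted p = 0.0266). Nop16 was the other gene with an estimate above 0 (0.18, adjusted p = 0.236 by limma), and the only one with both fresh libraries above both naive libraries (background 33.2%). The reverse held for 29 of 35 members (background 37.7%).

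Between genotypes the ribosome biogenesis genes stood close together. With the 3 populations pooled in limma, 0 of 35 members were called higher or lower in cKO (background 0.258% and 0.116%), and 3 had an unadjusted p under 0.05. Over all tested genes 1346 of 11224 had such a p. The median cKO minus WT difference in log2 was 0.00 in naive cells, 0.01 in nTregs taken fresh and 0.06 in those stimulated. The last turned to -0.10 at an equal FPKM sum. Within a population there is no replicate and no test. At a threshold of 1.5-fold in FPKM + 1, Myc in naive cells was the only member past it (background 1.99% higher in cKO, 1.59% lower). In fresh nTregs 0 of 35 passed (background 2.19% and 1.35%), and in stimulated nTregs 0 of 35 (background 4.86% and 2.14%). Of the members 10 were higher in cKO in all 3 populations (background 19.6%) and 4 were lower in all 3 (background 16.7%).

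Nop10 had the lowest genotype p among the 35 members. WT and cKO libraries held 93.4 and 114.0 FPKM when naive, 65.9 and 88.4 FPKM in fresh nTregs, and 83.9 and 112.7 FPKM with stimulation. The cKO library was higher in 3 of 3 populations, by 0.37 in log2 (SE 0.06), which did not pass (adjusted p = 0.114 by limma). Srm stood at 0.22 (adjusted p = 0.357 by limma) and Ppan, a large subunit factor, at -0.21 (adjusted p = 0.337 by limma), each with 1 direction in all 3 populations.

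**Figure D3:**
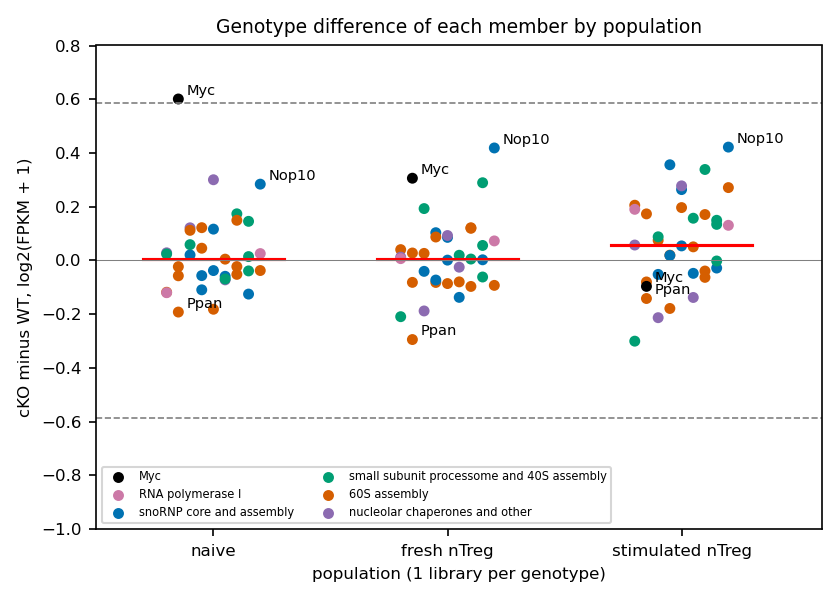
cKO minus WT difference in log2(FPKM + 1) of the 35 members (points, coloured by role) in each population, with the median (red line) and the 1.5-fold thresholds (dashed). Only Myc in naive cells, at 0.60, lies past a threshold, and Nop10 lies above 0 in each population.

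For Myc the sign of the genotype difference was not the same in each state. The cKO library minus WT was 0.60 in log2 for naive cells, 0.31 for fresh nTregs and -0.10 for stimulated ones, on about 252 and 461 fragments in the naive libraries. The stimulation response of Myc was 2.05 in WT and 1.65 in cKO, and the difference of -0.40 was the lowest of the 35, untested. The highest belonged to Mrto4 (0.36), a large subunit factor, and Noc4l (0.33). The median difference of the response over the members was 0.05. FPKM ratios of stimulated to fresh cells, Myc aside, ran from 0.952 to 2.07 in WT (median 1.52) and from 1.02 to 2.46 in cKO (median 1.55).

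Myc is listed in 2 rows of the deposited table, 1 of which carries no symbol there. The row without a symbol was 13.4 (WT) and 14.0 FPKM (cKO) in the naive state, 17.7 and 16.8 FPKM in fresh nTregs, and 70.9 and 60.4 FPKM with stimulation. The row that carries the symbol was 1.52 and 9.10 FPKM, then 3.99 and 10.2, then 22.2 and 26.6. The genotype difference in naive and fresh cells therefore sits in the second row, while the first differs little. Both rows link to the same transcript of the annotation used here, so how fragments were divided between them could not be followed.

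**Figure D4:**
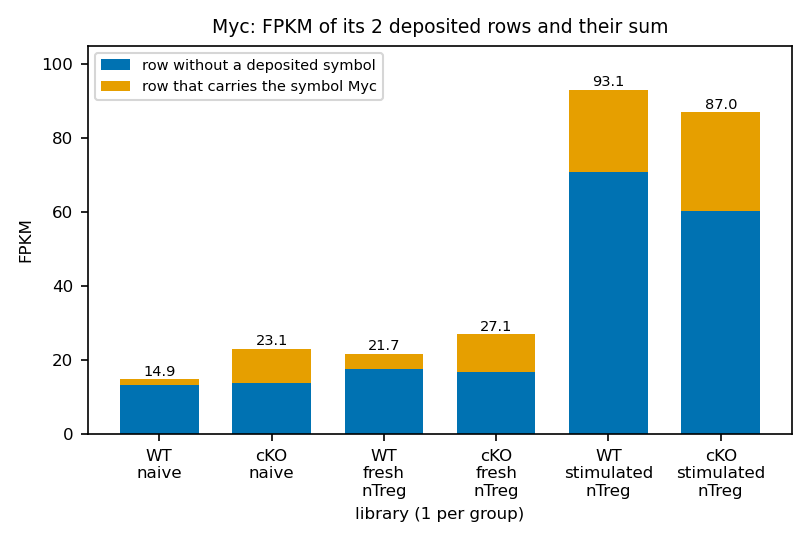
Myc FPKM (bars from 0, with the sum printed) in the 6 libraries, split into its 2 rows of the deposited table. The lower part is nearly equal between genotypes in naive and fresh cells, and the upper part is higher in cKO in each population.

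The wider pathway was read from lists of non-members. Of 107 other ribosome biogenesis factors 58 rose and 7 fell after stimulation (median 0.33), against 22.5% higher and 27.3% lower over all tested genes (median -0.05). In fresh nTregs 3 were higher and 37 lower than in naive cells (median -0.26), against 16.5% higher and 14.7% lower over all tested genes (median -0.02). The other lists are read against the same shares. Among other large subunit factors 25 of 43 rose and 0 fell, with Rrp1b going from 10.7 and 12.3 FPKM in fresh to 29.0 and 31.4 FPKM in stimulated nTregs (1.32). Other small subunit factors held 25 risen and 2 fallen of 40, led by Mphosph10 (0.93). Other snoRNP factors held 6 risen and 1 fallen of 10, led by Naf1, an H/ACA assembly factor that went from 5.01 and 4.33 FPKM to 14.1 and 10.8 FPKM (1.24).

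Of 14 other RNA polymerase I factors 2 rose and 4 fell after stimulation (median 0.04), shares not far from those of all tested genes (22.5% higher, 27.3% lower). Cd3eap, a polymerase I subunit, rose from 4.91 and 4.45 FPKM to 14.3 and 14.2 FPKM (1.43, adjusted p = 0.000525 by limma). Taf1c, of the promoter selectivity factor, fell by 0.60 and Polr1d, a subunit shared with RNA polymerase III, fell by 0.53. Of 18 RNA polymerase III factors 6 rose and 3 fell, and the polymerase III repressor gene Maf1 fell by 0.72.

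Of 12 tested partners and antagonists of Myc 3 rose and 6 fell after stimulation (median -0.36), and over all tested genes too more fell (27.3%) than rose (22.5%). Mxd4, which competes with Myc for Max, was 54.1 and 51.6 FPKM in fresh nTregs and 25.3 and 29.3 FPKM in stimulated nTregs (-0.93, adjusted p = 0.00074 by limma). It had been 26.2 and 27.6 FPKM in naive cells, so fresh nTregs held the highest values. Mnt, another Max partner that opposes Myc, fell by 0.90, and Usp28, a deubiquitinase that stabilises Myc protein, fell by 0.98. Of 18 Myc targets outside the nucleolus 16 rose and 0 fell (median 0.75). They were led by the amino acid transporter gene Slc7a5, from 12.4 and 8.12 FPKM to 38.0 and 43.2 FPKM (1.91), and the transferrin receptor gene Tfrc (1.49).

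Proliferation genes moved with the same contrast, and their part in it was not tested. Of 25 such genes 24 rose after stimulation (median 1.55), among them Top2a, from 10.8 and 19.0 FPKM to 57.3 and 105 FPKM. In fresh against naive cells 15 of 25 were higher and 0 lower (median 0.83), the direction opposite to that of the ribosome biogenesis genes. Between genotypes their median was 0.35, with 24 of 25 estimates above 0 and 1 called, whereas the 35 members had a median of 0.02. Over all 11224 tested genes that median was 0.01, with 6041 estimates above 0, 29 genes called higher and 13 lower.

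**Figure D5:**
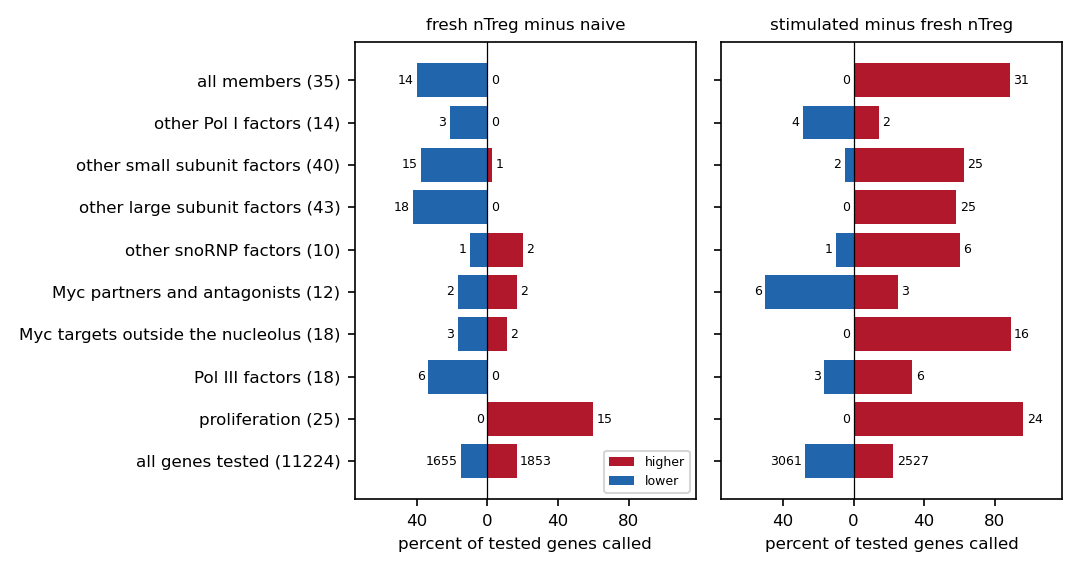
Percent of the tested genes of each list (number in brackets) called higher (red, right) or lower (blue, left) by limma at an adjusted p under 0.05, with counts at the bars. The left panel compares fresh nTregs with naive cells and the right panel stimulated with fresh nTregs, and 31 of 35 members lie on the higher side in the latter.

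Several members share features that their names did not fix. Of 35 members 7 host a small nucleolar RNA inside the gene (20.0%), against 2.55% of 10601 tested protein-coding genes in RefSeq. They are Nop56, Nop58, Dkc1, Wdr43, Ppan, Gnl3 and Ncl. The 10 hosted snoRNAs present in the table were listed at 0 in every library, except Snora75 in Ncl, at 79.6 FPKM in WT naive, 91.4 in WT fresh and 185 in cKO fresh cells and 0 in the others. Exons of 15 of 35 members overlap an exon of a gene on the opposite strand, such as Nop56 with Idh3b, and 0 overlap one on the same strand. The kit keeps strand, but whether quantification used it is not given in the sources used here, so values of those 15 could include reads of the partner. Fbl, Mrto4, Npm1 and Pes1 have a near copy elsewhere (95% identity over 50% of the transcript or more), and their values are uncertain to that extent.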

How the data were processed

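Total RNA of 6 libraries (1 per group) was made into strand-specific libraries from 322 ng after rRNA depletion, with 12 PCR cycles, per the labels' protocols. The authors aligned reads to mm10 with TopHat and computed FPKM with Cuffdiff and Cuffnorm, per the submitters' processing notes; versions are not given in the sources used here. The deposited FPKM values hold no counts and were not put into a count model. Columns marked YKP were read as YAP cKO by elimination.

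From these, 32860 rows gave 32547 transcripts. They were named by RefSeq accession (GRCm38.p6), otherwise by the deposited symbol, and FPKM was summed per gene. The plan had the deposited symbol as the main naming; it was exchanged with its alternative after the files showed that the symbol is absent from the row with most of Myc and nearly all of Mrto4. It found 44 of the 47 member rows.

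limma 3.58.1 (R 4.3.3; intensity trend, moderated variances) was fitted to log2(FPKM + 1), population plus genotype, over 11224 genes with at least 1 FPKM in at least 2 libraries, and was tested on simulated data. Log2 differences understate the fold of low genes. P-values were Benjamini-Hochberg adjusted over all genes. With 2 residual degrees of freedom they measure spread between libraries. Within a population there is no test.

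Depth is unknown as counts; 1 fragment on 1 kb was worth about 0.112 to 0.146 FPKM, estimated from low values, of which 82.4% to 85.6% lay within 0.15 in log2 of whole fragments. Fragment numbers cover counting error only, as PCR copies were not marked. The members and all lists were chosen with earlier results of these data known. Genes with full statistics are Myc and the largest and smallest change of each role group, and up to 3 of each other list; further examples were chosen after their values were seen. Alternatives covered the pseudocount, filters, scaling, naming, transcripts, model and single libraries. A marker result is not reported here.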

Additional observations from a re-analysis of the deposited data

Results flagged for a closer look

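In 4 cases the genotypes moved in opposite directions under the same contrast, each on 1 library per group, and the difference was not tested. In fresh nTregs minus naive cells, in log2, Nip7 stood at -0.091 in WT and 0.0049 in cKO, Ebna1bp2 at 0.048 in WT and -0.079 in cKO, and Ncl at 0.023 in WT and -0.29 in cKO. In stimulated minus fresh nTregs, Nip7 stood at -0.067 in WT and 0.22 in cKO. All but the Ncl value in cKO and the Nip7 response in cKO are below 0.1 in size, and limma called none of the 4 differences with the genotypes pooled.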

How the results depend on the processing

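Leaving out 1 library at a time gave 21 to 31 members higher and 0 lower in stimulated against fresh nTregs (median 0.56 to 0.63), 3 to 22 lower and 0 to 1 higher in fresh nTregs against naive cells (median -0.31 to -0.26), and 0 called between genotypes. Of 31 members called after stimulation 18 were called under every alternative, and of 14 that fell in fresh nTregs 2 were. The count that fell was 9 with no filter on low values, 5 at an equal FPKM sum with or without short RNAs (1 higher in each), and 22 at an adjusted p threshold of 0.1. Equal FPKM sums, with and then without short RNAs, moved the median after stimulation to 1.20 and 0.92, that of fresh against naive to -0.077 and -0.095, and that of cKO minus WT in stimulated nTregs to -0.097 and -0.086. Under them fresh minus naive turned positive, none called, for Nop58 (0.12 and 0.098), Gar1 (0.030 and 0.015), Noc4l (0.062 and 0.045), Pes1 (0.077 and 0.059), Nip7 (0.15 and 0.13), Ebna1bp2 (0.17 and 0.16), Noc2l (0.075 and 0.057), Ncl (0.065 and 0.047) and, in the first, Bop1 (0.0021). Ebna1bp2 also did under median ratio scaling (0.023) and Nip7 with its highest transcript only (0.0016). Leaving out 1 library, fresh minus naive ran from -0.25 to 0.0034 for Noc4l, -0.16 to 0.076 for Nip7, -0.073 to 0.042 for Ebna1bp2 and -0.29 to 0.029 for Ncl, and stimulated minus fresh from -0.091 to 0.24 for Nip7 and -0.055 to 0.12 for Ncl. The cause was not tested. No paired analysis was possible because each group has 1 library, which leaves no replicate numbers to pair; the genotype term of the fit already compares populations within each genotype, and without that term 29 members rose after stimulation and 11 fell in fresh nTregs. FPKM without counts limits depth to an estimate.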
